A study of Mus musculus with 9 samples.

Results

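Ucma, Kndc1, Psd2, Nrbp2, Miat, Rab26 and Prkcb are 7 genes that lay among the largest differences between proliferating and differentiating neural stem and progenitor cells, cultured from the dentate gyrus of adult mice. They were chosen by that difference, as measured on these same arrays, and are 7 of the 11009 genes tested. All 15 probes listed with one of these symbols were taken, and 10 of them passed the filter on dim probes (a signal above the negative controls, at a detection p-value below 0.05, on 3 or more of the 9 arrays), at least 1 for each gene. The source is labelled hippocampus/dentate gyrus of C57BL6 mice, and total RNA was hybridised to 9 Illumina MouseWG-6 v2.0 arrays. The stages were proliferating neurospheres grown with EGF and bFGF (proliferation), cells differentiated for 2 days (early differentiation) and cells differentiated for 7 days (late differentiation), with 3 arrays labelled as biological replicates at each stage. Neurospheres float, whereas the differentiating cells were plated on dishes coated with poly-D-lysine and laminin and kept in proliferation medium before the medium was changed, so substrate and medium differ together with stage. The arrays of proliferation and late differentiation shared 1 BeadChip and those of early differentiation lay on another, so that stage and BeadChip cannot be told apart in any comparison with early differentiation. Nothing in the labels says whether replicates came from separate animals, and p-values measure only the spread between these arrays.

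Adult neural stem cells of the dentate gyrus divide in response to growth factors, and cells that leave the cycle give rise to granule neurons and astrocytes. In culture, withdrawal of the growth factors sets off differentiation, in which genes of signalling, vesicle traffic and the extracellular space are exchanged along with those of division. The 7 genes fall into 4 kinds by what they encode. Ucma is a secreted matrix protein rich in gamma-carboxyglutamate, known from growth plate cartilage. Kndc1, Psd2 and Rab26 belong to small GTPase signalling: Kndc1 is a brain Ras exchange factor that limits dendrite growth, Psd2 activates the GTPase Arf6, and Rab26 is a GTPase of secretory and synaptic vesicles. Prkcb is a protein kinase C activated by calcium and diacylglycerol, and Nrbp2 is a pseudokinase, a kinase-like protein that lacks a working catalytic site. Miat, also called Gomafu, is a nuclear long noncoding RNA that binds splicing factors.

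Promoters are shown for 4 of the 7 genes, as matched in the RefSeq table (build GRCm38.p6). They belong to 2 genes brightest in late differentiation, 1 brightest in early differentiation and 1 brightest in proliferation. Each runs from 250 bases before to 50 after the annotated start. Nrbp2, Rab26 and Psd2 are named only. Capitals mark every match, on either strand, of the NFI motif TTGGCA, the E-box CANNTG or the AP-1 motif TGANTCA. The Ucma promoter lies at chr2:4975872-4976171 on the plus strand, that of Kndc1 at chr7:139894446-139894745 on the plus strand, that of Miat at chr5:112228899-112229198 on the minus strand and that of Prkcb at chr7:122288875-122289174 on the plus strand.
Ucma: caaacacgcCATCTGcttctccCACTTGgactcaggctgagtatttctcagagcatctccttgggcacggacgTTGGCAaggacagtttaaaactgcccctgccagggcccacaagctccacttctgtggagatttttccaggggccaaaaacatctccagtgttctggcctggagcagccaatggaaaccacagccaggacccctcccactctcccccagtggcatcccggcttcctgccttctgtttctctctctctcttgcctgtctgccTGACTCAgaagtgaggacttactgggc
Kndc1: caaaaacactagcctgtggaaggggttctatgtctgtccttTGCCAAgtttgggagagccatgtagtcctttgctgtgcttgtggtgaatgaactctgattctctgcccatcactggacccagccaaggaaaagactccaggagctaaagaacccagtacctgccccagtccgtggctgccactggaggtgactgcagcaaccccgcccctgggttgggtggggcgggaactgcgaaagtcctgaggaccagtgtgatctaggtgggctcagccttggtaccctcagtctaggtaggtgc
Miat: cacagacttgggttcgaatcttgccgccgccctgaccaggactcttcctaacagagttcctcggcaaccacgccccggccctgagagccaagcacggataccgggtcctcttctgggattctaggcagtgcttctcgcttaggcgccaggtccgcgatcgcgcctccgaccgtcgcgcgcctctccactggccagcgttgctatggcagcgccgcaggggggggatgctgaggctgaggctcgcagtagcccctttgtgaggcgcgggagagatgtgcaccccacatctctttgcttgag
Prkcb: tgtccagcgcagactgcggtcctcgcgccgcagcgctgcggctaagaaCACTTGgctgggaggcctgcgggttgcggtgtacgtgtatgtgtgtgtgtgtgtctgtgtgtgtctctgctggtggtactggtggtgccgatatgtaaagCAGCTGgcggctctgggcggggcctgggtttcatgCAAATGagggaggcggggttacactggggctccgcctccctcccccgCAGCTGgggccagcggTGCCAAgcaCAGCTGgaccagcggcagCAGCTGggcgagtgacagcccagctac

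In these windows the Prkcb promoter held 6 E-boxes, a number that 0.67% of the 32851 RefSeq promoters of this length reached. Of those, 4 had the form CAGCTG, a form singled out after the sequence was seen and held at least 4 times by 0.0274% of promoters. Ucma held 2 E-boxes, and Kndc1 and Miat held 0, while 72.3% of all promoters held at least 1. The NFI motif stood once in Ucma, Kndc1 and Prkcb, against 14.1% of all promoters with at least 1. Ucma also held 1 AP-1 site, found in 7.81% of promoters. None of the 4 windows held the CRE motif TGACG (20.8% of all promoters), the STAT site TTCNNNGAA (8.3%), the Sox site AACAAT (10.7%) or the E2F sites TTTCCCGC (1.07%) and TTTGGCGC (0.514%), each searched on both strands. CpG dinucleotides numbered 25 in Miat and 19 in Prkcb, against 4 each in Ucma and Kndc1 and a median of 7 over all promoters. These matches describe the letters of the windows only.

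The arrays detected 18310 to 19919 probes each. Without normalization the arrays of proliferation were the brightest (mean intensity 218 to 228, against 157 to 171 in early and 173 to 180 in late differentiation). Of the marker genes, Top2a and Cdk1, which mark cycling cells, had a summed intensity of 1180 to 1601 in proliferation, 174 to 186 in early and 167 to 183 in late differentiation. The 7 astrocyte markers summed to 14175 to 18928, 20932 to 26697 and 23989 to 24896 in the same stages, and the 5 ependymal markers to 555 to 603, 1354 to 1738 and 1758 to 2318. The 8 neuronal markers summed to 3156 to 3869, 2204 to 2762 and 2268 to 2614, with Snap25 and Neurod1 undetected on every array and 6 of the 8 undetected on every proliferation array. These sums include the background of each probe and are of intensities before normalization. After it, 5 neuronal markers could be tested, of which 0 passed in late over proliferation (median 0.30) and 1, Rbfox3, was higher in early over proliferation (1.23 ± 0.26, median of the markers 0.18), so the markers and their sums differed in direction. In late over proliferation Dcx (0.5847, limma adjusted p = 0.000952) and Syt1 (0.30, adjusted p = 0.0252) were short of 1.5-fold only, Dcx by very little. Both were undetected on every proliferation array and detected on all 3 late arrays. The 5 neural stem cell markers summed to 4088 to 5704, 3990 to 4152 and 4641 to 6142, with Hes5 undetected, and the 6 oligodendrocyte lineage markers to 678 to 871, 928 to 979 and 800 to 885, with Mog undetected. Both sums hide opposite movements after normalization. In late over proliferation Vim (1.13) and Sox2 (0.80) were higher and Fabp7 (-1.73) lower. Likewise, Cnp (1.21) and Pdgfra (0.73) were higher and Olig2 (-1.32) lower. No marker of microglia, of endothelial and mural cells or of fibroblasts was detected on all 3 arrays of any stage. Several of these sums moved with stage, and their part in the results was not tested. In such bulk RNA, fewer cells of a type and less RNA per cell cannot be told apart.

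Each gene is described first by the deposited intensity of its brightest probe, which includes a background of about the level seen for undetected probes. The differences are those of log2 intensity after background correction and quantile normalization. The differences from proliferation chose the genes and are given without a test, while the difference between late and early differentiation was not part of the choice and was tested over all 11009 genes. A gene passed that test at a Benjamini-Hochberg adjusted p under 0.05 in limma with a difference of at least 1.5-fold. By this rule 3.92% of all genes differed between late and early differentiation (1.57% higher and 2.35% lower in late), and 3 of the 7 genes did, 1 higher and 2 lower. Relative to proliferation, 33.9% of the 11009 genes passed in late differentiation (17.6% higher and 16.2% lower) and 32.0% in early differentiation (16.8% higher and 15.2% lower), and from these shares nothing is read about the 7 genes.

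**Figure D1:**
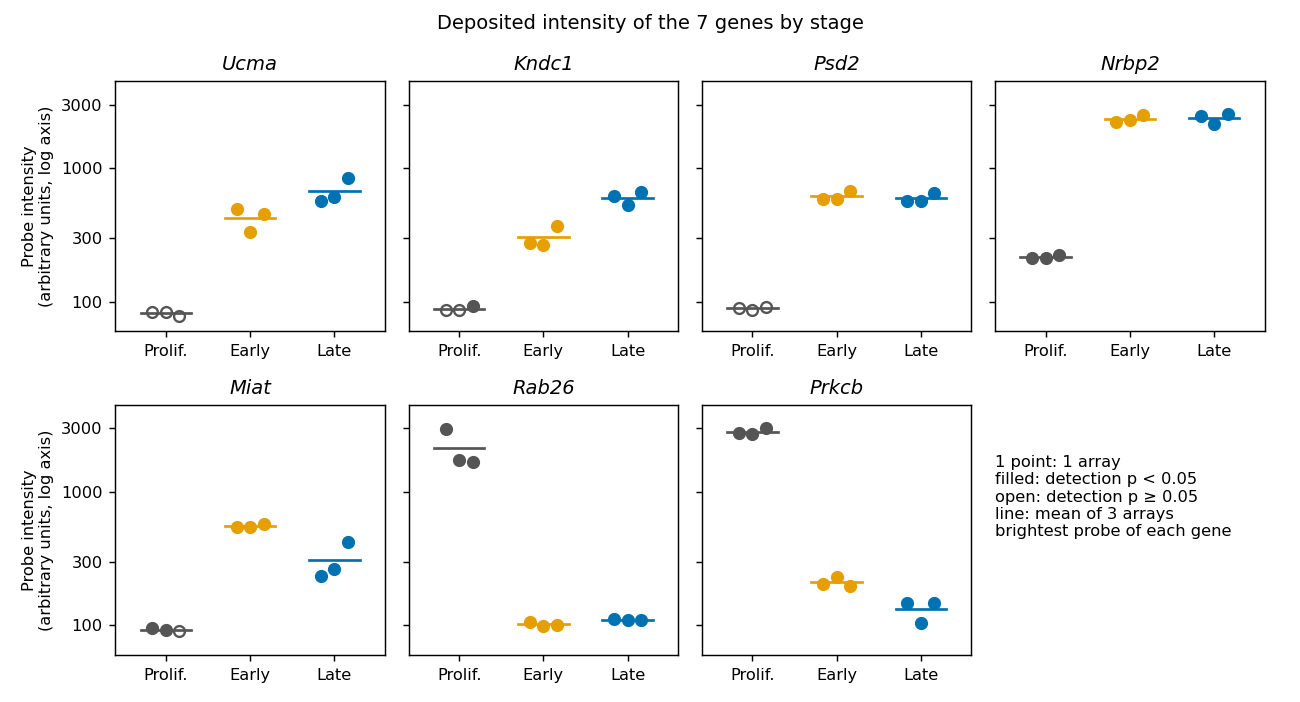
Deposited intensity (arbitrary units, log axis) of the brightest probe of each of the 7 genes on the 9 arrays, with stages in time order, 1 point per array and the mean of 3 arrays as a line. Filled points have a detection p-value under 0.05; Ucma and Psd2 are open on all 3 proliferation arrays, whereas Rab26 and Prkcb are brightest there and stay filled in both differentiation stages.

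Ucma, the secreted matrix protein, was not detected in proliferation and was brightest in late differentiation. Its probe read 83.0, 84.1 and 77.4 in proliferation, 492, 330 and 451 in early differentiation and 563, 606 and 846 in late differentiation. It was detected on none of the proliferation arrays and on all others, and the 3 stages did not overlap. Ucma was at least 30.3-fold higher in late differentiation and at least 19.8-fold higher in early differentiation than in proliferation, the bound being taken against the lowest signal of a detected probe. These bounds hold only for the processing as reported. With an offset of 50 the fitted differences were smaller, 3.75 on the log2 scale in late and 3.17 in early differentiation. With the background subtracted they were 8.87 and 8.22. Late exceeded early differentiation by 0.61 ± 0.21 on the log2 scale (SE, 3 arrays each), or 1.53-fold, with a 95% interval of 0.15 to 1.07. It did not pass the test (limma, adjusted p = 0.108), although every late array lay above every early array, as was so, in either direction, for 28.6% of all genes. Such a separation was found for 61.6% of all genes between late differentiation and proliferation and for 61.3% between early differentiation and proliferation.

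The proteins closest to Ucma in type are the other Gla proteins and the enzymes of the vitamin K cycle that carboxylates them. Of 19 listed genes, 8 were tested. In late over early differentiation 1 rose and 0 fell, the riser being Pros1, the anticoagulant protein S (0.62 ± 0.12, adjusted p = 0.0151), and the median of the list was -0.08 against 0.01 over all genes. Relative to proliferation, 2 rose and 1 fell in late and 1 rose and 1 fell in early differentiation. Ggcx, the carboxylase itself, was higher by 0.79 in late and 1.03 in early differentiation, and Vkorc1l1, a vitamin K reductase, was lower by 1.10 and 1.13. Ggcx did not pass without normalization between arrays (0.38 and 0.51). Mgp was not among the genes that passed the filter. Of the 24 genes of cartilage matrix and chondrocytes, 7 were tested, and 0 of them passed in late over early differentiation. In late over proliferation 2 rose and 0 fell, and in early over proliferation 3 rose and 0 fell, with Sox9, a transcription factor of both chondrocytes and glia, at 1.76 ± 0.10 and 1.88 ± 0.10 and Sox6 at 1.54 ± 0.22 and 1.34 ± 0.22. Also higher in early over proliferation was the collagen gene Col9a2 (0.72 ± 0.15), which did not pass in late over proliferation (0.35). Acan and Col2a1, the main cartilage matrix genes, were not among the genes tested.

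Kndc1, the Ras exchange factor, increased again between the differentiation stages. Its probe read 86.8, 86.1 and 92.6 in proliferation, 273, 265 and 369 in early differentiation and 618, 527 and 659 in late differentiation. Only the third proliferation array passed detection, at a p of 0.0449, and no stage overlapped another. Kndc1 was 28.9-fold higher in late and 14.0-fold higher in early differentiation than in proliferation. These sizes depend on how the background was treated: on the log2 scale the late difference was 3.53 with an offset of 50 and 6.77 with the background subtracted, and the early difference 2.56 and 5.66. It rose in late over early differentiation by 1.05 ± 0.19 on the log2 scale, or 2.06-fold (adjusted p = 0.0107), an absolute difference at the 98.8th percentile of all genes. With the background subtracted in place of the model the difference was 1.11 and did not pass (adjusted p = 0.0816). Of its 5 probes only this one was detected on any array, and the other 4 read 74.7 to 88.7 throughout, so the differences of Kndc1 rest on a single probe.

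Psd2, the Arf6 exchange factor, was bright in both differentiation stages, and the difference between these stages did not pass the test. Its probe read 89.7, 85.9 and 90.9 in proliferation, all undetected, then 584, 588 and 669 in early differentiation and 572, 573 and 647 in late differentiation. The early and late arrays overlapped. Psd2 was at least 27.0-fold higher in late and at least 31.4-fold higher in early differentiation than in proliferation. These bounds hold only for the processing as reported. With an offset of 50 the fitted differences were smaller, 3.52 on the log2 scale in late and 3.72 in early differentiation. With the background subtracted they were 6.67 and 6.84. Late differed from early differentiation by -0.22 ± 0.13 (95% interval -0.51 to 0.07, adjusted p = 0.348).

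Kndc1 and Psd2 were set beside other exchange factors. Of 31 listed Ras and Rap exchange factors and Ras proteins, 23 were tested. Ralgps2, an exchange factor for the GTPase Ral, alone passed in late over early differentiation (-0.74 ± 0.13, adjusted p = 0.00983). That call was lost without normalization between arrays (-0.57). The median of this list was -0.07 in late over early differentiation, against 0.01 over all genes. Relative to proliferation 8 rose in late and 7 in early differentiation and 0 fell in either. The largest rises were those of Rapgef3, the cyclic AMP sensor Epac1 (1.69 ± 0.09 in late and 1.71 ± 0.09 in early differentiation), and Rgl2, an effector that activates Ral (1.36 ± 0.17 and 1.43 ± 0.17). Of 21 Arf GTPases and Arf exchange factors 14 were tested and 0 passed in late over early differentiation (median 0.06). Relative to proliferation 2 rose and 1 fell in late differentiation, and 3 rose and 1 fell in early differentiation. Arf2, an Arf GTPase, rose by 1.11 ± 0.14 in late and 1.15 ± 0.14 in early differentiation, and Iqsec2, an Arf exchange factor of synapses, by 0.83 ± 0.10 and 1.02 ± 0.10. None of these 4 values passed without normalization between arrays (0.58 and 0.47 for Arf2, 0.36 and 0.43 for Iqsec2). Arf6, the substrate of Psd2, fell by 0.72 ± 0.13 in late and by 0.78 ± 0.13 in early differentiation relative to proliferation, while Psd3, the one close relative of Psd2 that was tested, differed by 0.41 and 0.10 and did not pass.

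Nrbp2, the pseudokinase, was detected on every array at every stage. Its probe read 213, 213 and 223 in proliferation, 2208, 2312 and 2525 in early differentiation and 2455, 2159 and 2544 in late differentiation. The early and late arrays overlapped, and both lay above every proliferation array. Nrbp2 was 22.5-fold higher in late and 24.8-fold higher in early differentiation than in proliferation, so it was dim but present before differentiation. Late differed from early differentiation by -0.14 ± 0.12 (95% interval -0.41 to 0.14, adjusted p = 0.550), and its paralogue Nrbp1 differed by 0.03 between these stages and by -0.19 and -0.21 in late and early differentiation from proliferation, none of which passed. Of the 23 partners and other pseudokinases listed, 18 were tested. In late over early differentiation 0 rose and 2 fell, the pseudokinase Trib2 by 0.81 ± 0.12 (adjusted p = 0.00427) and the chloride transport kinase Wnk4 by 0.69 ± 0.13 (adjusted p = 0.0145). Wnk4 did not pass without normalization between arrays (-0.57). Relative to proliferation 4 rose and 3 fell in late and 3 rose and 3 fell in early differentiation. Tsc22d4, whose protein binds NRBP proteins, rose by 1.74 ± 0.15 in late and 1.62 ± 0.15 in early differentiation, while Trib2 fell by 2.21 ± 0.12 and 1.40 ± 0.12.

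Miat, the long noncoding RNA, was high in early differentiation and lower again in late differentiation. Its probe read 96.0, 92.9 and 90.1 in proliferation, 550, 546 and 577 in early differentiation and 235, 266 and 424 in late differentiation. The early arrays lay close together, whereas the third late array stood far above the other 2, yet no stage overlapped another. Miat was 10.9-fold higher in late and 26.0-fold higher in early differentiation than in proliferation, where 2 of 3 arrays passed detection. With an offset of 50 and with the background subtracted, these differences were 2.34 and 4.78 on the log2 scale in late and 3.49 and 6.04 in early differentiation. It fell in late relative to early differentiation by 1.26 ± 0.24 on the log2 scale, or 2.39-fold (adjusted p = 0.0141). Without the second early array the difference was -1.28 with an adjusted p of 0.0516, and the call was lost. Miat did not pass with the background subtracted (-1.26, adjusted p = 0.0996) or in the deposited value table (-1.32, adjusted p = 0.0596) either. The second probe of Miat was undetected on all 9 arrays, with a lowest detection p of 0.0823, and the differences rest on 1 probe.

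Other long noncoding RNA genes were measured for 10 of 30 listed. Between late and early differentiation 1 rose and 0 fell: Dleu2 rose by 0.68 ± 0.12 (adjusted p = 0.0112), a call that was lost with the background subtracted (1.05). The median of the list was 0.13 against 0.01 over all genes. Neat1, the scaffold of paraspeckles, differed by 1.04 ± 0.42 without passing (adjusted p = 0.165), and was higher than in proliferation by 2.25 ± 0.42 in late and 1.21 ± 0.42 in early differentiation. The early value of Neat1 did not pass without normalization between arrays (0.56) or with the background subtracted (1.18). Relative to proliferation 4 rose and 1 fell in late and 3 rose and 2 fell in early differentiation. Of 4 splicing factors reported to bind Miat, 3 were tested. Qk, the RNA-binding protein quaking, fell in late over early differentiation by 0.87 ± 0.14 (adjusted p = 0.00718), and was lower than in proliferation by 1.51 ± 0.14 in late and 0.65 ± 0.14 in early differentiation. Srsf1, a serine and arginine rich splicing factor, fell relative to proliferation by 0.59 ± 0.10 in late differentiation, while its differences of -0.42 in early over proliferation and -0.17 in late over early differentiation did not pass. Sf1 differed by 0.11 between late and early differentiation and did not pass in any comparison.

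Rab26, the vesicle GTPase, was bright in proliferation and close to the background afterwards. Its first probe read 2975, 1725 and 1675 in proliferation, 106, 98.3 and 99.8 in early differentiation and 112, 109 and 109 in late differentiation. The first proliferation array stood above the other 2, and every differentiation array was far below all of them though still detected. Rab26 differed from proliferation by -4.93 ± 0.19 in late and -5.07 ± 0.19 in early differentiation, or 30.6-fold and 33.6-fold. Late differed from early differentiation by 0.14 ± 0.19 (95% interval -0.28 to 0.55, adjusted p = 0.719). The second, dimmer probe read 351, 209 and 220 in proliferation, 82.1, 81.6 and 81.5 in early differentiation and 83.8, 85.8 and 82.2 in late differentiation. It had the same high first proliferation array, was detected on 1 of 3 arrays in each differentiation stage, and differed from proliferation by -2.78 and -2.76. The dimmer probe thus gave the smaller difference, with its differentiation arrays at the background.

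Among the other Rab GTPases no gene passed in late over early differentiation, against 3.92% of all genes. With so small a share over all genes, nothing is read from this count. Of 56 listed, 47 were tested by limma, and 0 passed, with a median of -0.07. Rab15 (-0.56, adjusted p = 0.0142) and Rab1a (0.49, adjusted p = 0.0128) met the limit on adjusted p but were short of 1.5-fold. Relative to proliferation 7 rose and 6 fell in late differentiation, and 8 rose and 6 fell in early differentiation. The largest falls were those of Rab3b (-2.91 ± 0.31 in late and -2.72 ± 0.31 in early differentiation) and Rab3a (-1.30 ± 0.18 and -1.45 ± 0.18), both GTPases of regulated secretion, and of Rab38 in late differentiation (-1.42 ± 0.15), a GTPase of lysosome-related organelles. Rab3b was undetected on every late array, which gave a fall of at least 6.99-fold. The largest rises were those of Rab3d (1.95 ± 0.18 and 1.77 ± 0.18), Rab7b (1.60 ± 0.17 and 1.63 ± 0.17) and Rab11b (1.38 ± 0.12 and 1.61 ± 0.12). Members of the Rab3 subfamily thus stood at both ends. Of 18 effectors and regulators of Rab26 and Rab3, 12 were tested and 0 passed in late over early differentiation (limma). Rab3ip, an exchange factor that binds Rab3, fell relative to proliferation by 1.07 ± 0.15 in late and 0.92 ± 0.15 in early differentiation, while Atg16l1, the autophagy protein that binds Rab26, differed by 0.07 and 0.18 and did not pass. The genes on either side of Rab26 among those tested both fell relative to proliferation. Rab26os, named as its opposite-strand transcript, fell by 1.24 ± 0.12 in late and 1.15 ± 0.12 in early differentiation, and Pkd1, which encodes polycystin-1, fell too (-1.17 ± 0.20 and -1.30 ± 0.20). They were singled out for their position after their values were seen. For none of the other chosen genes did both flanking genes pass in its direction. Adgra1 beside Kndc1, Igip beside Psd2 and Plec beside Nrbp2 rose with them in both stages. Mcm10 beside Ucma fell (-3.39 in late and -3.25 in early differentiation), Ern2 beside Prkcb rose in early differentiation (0.63), and neither gene beside Miat passed.

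Prkcb, the calcium-dependent protein kinase C, was lower in early differentiation than in proliferation and lower again in late differentiation. Its first probe read 2755, 2719 and 2988 in proliferation, 205, 230 and 196 in early differentiation and 146, 104 and 146 in late differentiation. No stage overlapped another and all 9 arrays passed detection, so the gene stayed measurable at its lowest. Prkcb differed from proliferation by -4.87 ± 0.22 in late and -3.53 ± 0.22 in early differentiation, or 29.2-fold and 11.5-fold. Relative to early differentiation it fell in late differentiation by 1.34 ± 0.22, or 2.53-fold (adjusted p = 0.00718), an absolute difference at the 99.6th percentile of all genes. In the deposited value table the difference was -1.60 with an adjusted p of 0.05004, just short of the test. All 3 of its probes passed the filter and each fell in this comparison. The second probe read 906, 631 and 781 in proliferation, 107, 109 and 96.9 in early differentiation and 91.5, 93.7 and 90.7 in late differentiation, a late over early difference of -0.72 ± 0.15 (adjusted p = 0.0177 over all kept probes). The third probe read 685, 595 and 704, then 104, 103 and 95.2, then 87.5, 84.2 and 87.2 in the same stages, a difference of -0.93 ± 0.11 (adjusted p = 0.00133). It was detected on 2 of the 3 late arrays, and both dimmer probes were close to the background in late differentiation.

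**Figure D2:**
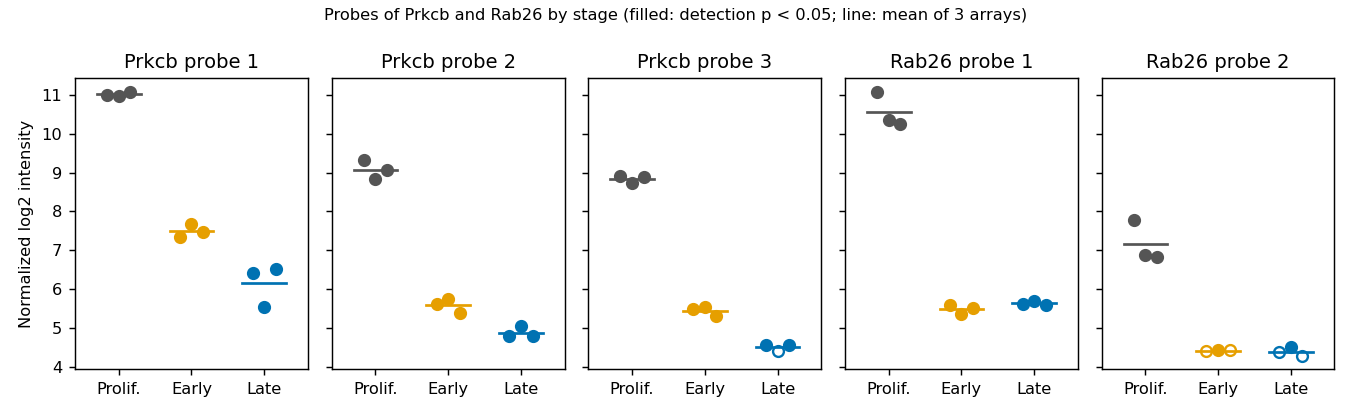
Normalized log2 intensity of the 3 probes of Prkcb and the 2 probes of Rab26 on the 9 arrays, with stages in time order, 1 point per array, the mean of 3 arrays as a line, and open points where the detection p-value was 0.05 or more. Each Prkcb probe is lower in early differentiation than in proliferation, with every late array below every early one. For both Rab26 probes the early and late arrays overlap.

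Other members of the protein kinase C family were measured beside Prkcb. Of 14 listed isoforms and relatives, 8 were tested, and by limma 0 of them passed in late over early differentiation (median -0.22 against 0.01 over all genes). Relative to proliferation 2 rose and 2 fell in late and 4 rose and 0 fell in early differentiation. Prkca, the conventional isoform closest to Prkcb, rose by 1.96 ± 0.21 in late and 2.05 ± 0.21 in early differentiation. Prkcq, an isoform that does not need calcium, was undetected in proliferation and rose by at least 2.01-fold and 2.55-fold. The falls in late differentiation were those of Prkd3 (-0.75 ± 0.23) and Pkn2 (-0.69 ± 0.13), relatives of the family. Of 12 listed kinase substrates, 11 were tested. In late over early differentiation Ppp1r14b, a phosphatase inhibitor, rose by 0.76 ± 0.10 (adjusted p = 0.00327), and Cavin2, a caveolar protein, fell by 0.99 ± 0.26 (adjusted p = 0.0482). Cavin2 did not pass under cyclic loess, without normalization or with the background subtracted. Relative to proliferation 1 substrate rose and 5 fell in late and 0 rose and 5 fell in early differentiation, among them the anchoring protein Akap12 (-3.81 ± 0.20 in late and -3.45 ± 0.20 in early) and the growth cone protein Gap43 (-1.16 ± 0.19 and -1.76 ± 0.19). Of 21 genes that supply or remove diacylglycerol, 14 were tested and 0 passed in late over early differentiation (limma). Relative to proliferation 5 rose and 2 fell in late and 4 rose and 1 fell in early differentiation, with the phospholipase Plcd4 highest (1.95 ± 0.15 and 1.77 ± 0.15) and the diacylglycerol kinase Dgkz lowest (-1.44 ± 0.10 and -1.21 ± 0.10).

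**Figure D3:**
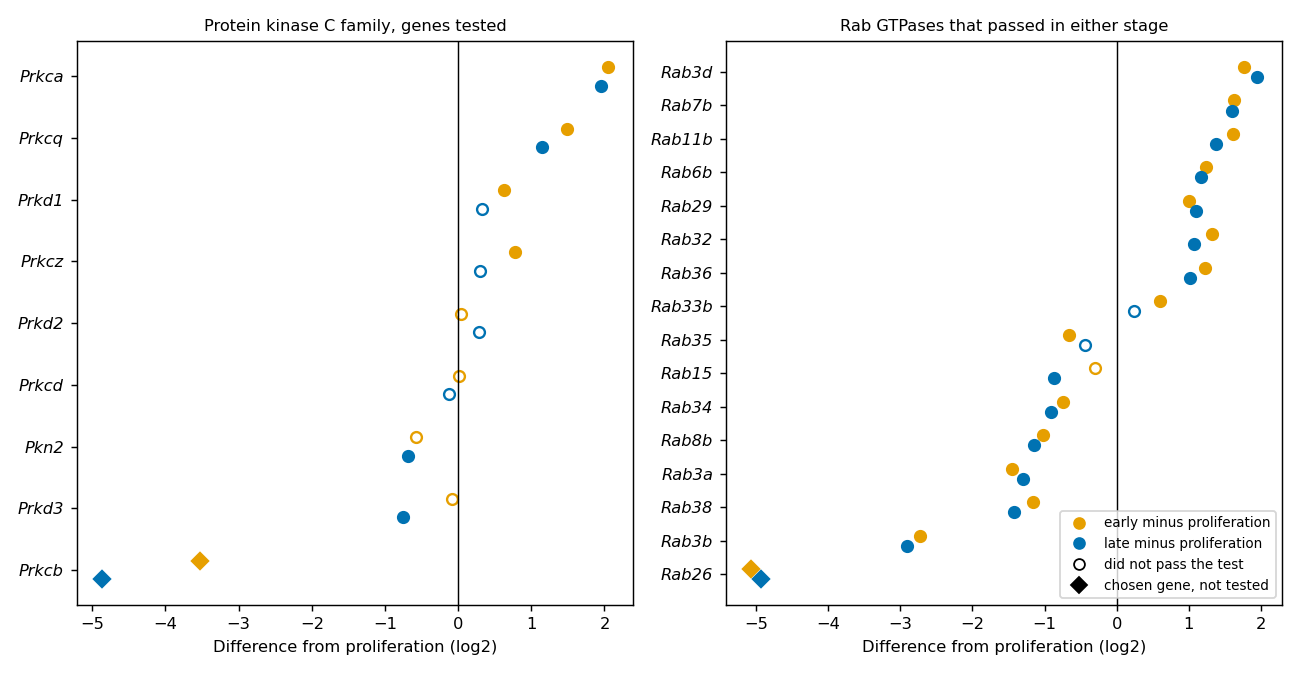
Difference from proliferation (log2, x axis) in early and late differentiation for the tested protein kinase C isoforms and relatives (left) and for the Rab GTPases that passed the test in at least 1 stage (right). Open points did not pass, and diamonds are Prkcb and Rab26, which were chosen by this difference and not tested; Prkca lies at 1.96 in late differentiation where Prkcb lies at -4.87, and Rab3b is the lowest Rab beside Rab26.

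Ranked by the smaller of the 2 absolute fitted differences from proliferation, Rab26 was 4th of all genes, Nrbp2 13th, Prkcb 58th and Miat 72nd. Ucma and Psd2 were undetected in proliferation and Kndc1 was detected there on 1 array, so that their places depend on how the background was treated and are not given. The places given hold only for the processing as reported. The late difference of Miat was 2.34 with an offset of 50 and 4.78 with the background subtracted. That of Rab26 was -3.86 with the mean of its kept probes. No threshold set the genes apart: Pbk (5.08) lay just above Rab26 (4.93), and Lmnb1 (3.45) and Grm5 (3.44) on either side of Miat (3.44). The genes were grouped as strong on or off switches, and detection matched this unequally. Ucma and Psd2 were undetected throughout proliferation, Kndc1 and Miat were detected on 1 and 2 of its arrays and Nrbp2 on all 3, and Rab26 and Prkcb were still detected by their brightest probes on every differentiation array. Without normalization between arrays, the median of all genes lay at -0.31 in late and -0.41 in early differentiation relative to proliferation, and the share of passing genes that were higher was 21.5% and 15.7%, against 52.1% and 52.6% as reported. The differences of the 7 genes from proliferation kept their directions, also relative to those medians. Of the related genes, 18 of 62 calls in late over proliferation and 19 of 59 in early over proliferation were then lost, and Rab33b and Cyth3, both small rises in early differentiation, turned.

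The difference between the differentiation stages split the group. Kndc1 rose, Miat and Prkcb fell, and Ucma, Psd2, Nrbp2 and Rab26 did not pass. The 2 that fell came from opposite sides, Miat being higher and Prkcb lower in differentiation than in proliferation. With replicate number as a block, adjusted p was 0.00188 for Kndc1, 0.00762 for Miat, 0.00461 for Prkcb and 0.0706 for Ucma, and the same 3 genes passed. Since early differentiation was hybridised on its own BeadChip, the part of the chip in these 3 differences cannot be told apart from that of stage.

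**Figure D4:**
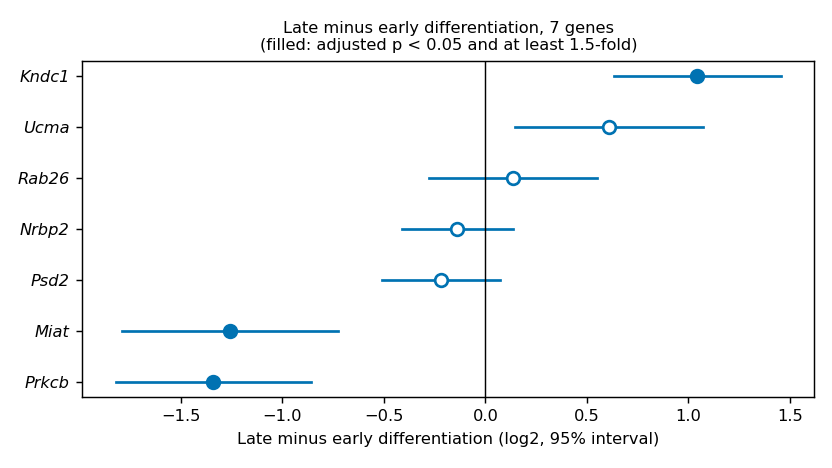
Late minus early differentiation (log2, x axis) for the 7 genes with 95% intervals from the limma fit, filled where the gene passed. Kndc1 lies at 1.05, Miat at -1.26 and Prkcb at -1.34, while the intervals of Psd2, Nrbp2 and Rab26 span 0 and that of Ucma lies above it without passing after adjustment.

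**Figure D5:**
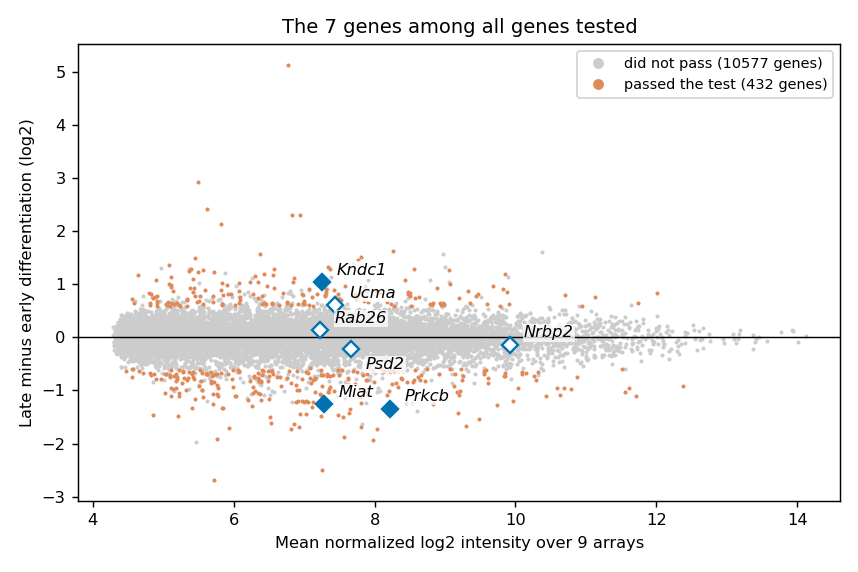
Late minus early differentiation (log2, y axis) against mean normalized log2 intensity over the 9 arrays (x axis) for all 11009 genes, with the 432 that passed in orange and the 7 genes as diamonds (filled where they passed). Kndc1 lies above and Miat and Prkcb below the bulk of genes of like brightness, and Rab26, Psd2 and Nrbp2 lie within it.

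The profiles most like those of the 7 genes were found by the root mean square difference of log2 values over the 9 arrays, each gene centred on its own mean. Igfbp5, an insulin-like growth factor binding protein, was nearest to Ucma (0.388) and to Psd2 (0.342), with the heat shock protein gene Hspb8 next to both (0.415 and 0.384). Entpd2, an ATP-hydrolysing enzyme of the cell surface, was nearest to Nrbp2 (0.299) and among the 3 nearest to Psd2 (0.399). Enkur, a gene of motile cilia, was nearest to Kndc1 (0.389), followed by C4a (0.435) and the neurotensin receptor gene Ntsr2 (0.439). Fbxo2, which marks glycoproteins for degradation, was nearest to Miat (0.323), and it too was lower in late than in early differentiation (-0.73). On the proliferation side, Rab26 was most like the mitotic genes Pbk (0.305), Plk1 (0.398) and Cdca3 (0.445), and Prkcb most like Fbln2 (0.376), Igfbp4 (0.415) and Angpt2 (0.440), genes of secreted proteins. Both groups of neighbours were far lower in differentiation. In late over early differentiation the neighbours of Prkcb differed by -1.17, -1.26 and -0.73 and those of Rab26 by 0.25, 0.05 and 0.12. The choice of neighbours used the early and late arrays too, and so favoured genes with a late over early difference like that of the chosen gene. Nothing is therefore read from these values or from that of Fbxo2. The likeness is a description, since the 9 arrays hold 3 stages and any gene with 1 large step between them resembles the others.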

How the data were processed

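RNA of 9 samples was hybridised to 9 Illumina MouseWG-6 v2.0 arrays. The deposited table of intensity values and detection p-values, exported by the authors from GenomeStudio, was used. In their methods the background was subtracted at export and GeneSpring was used for the analysis, yet these intensities still held the background; the deposited value table, background-subtracted and scaled by 1 factor per array, served as an alternative. Intensities were corrected with the normal-exponential model on detection p-values (offset 16), quantile normalized and put on the log2 scale in limma 3.58.1 (R 4.3.3). The offset compresses differences of dim probes. The platform annotation gave 1 symbol for 34885 of the 45281 probes, several for 18 and no symbol for 10378. The filter kept the 20935 probes detected (p-value below 0.05) on 3 or more arrays, and each of 11009 genes was represented by its brightest kept probe. All 9 arrays entered a single limma fit of stage means (lmFit, eBayes), with Benjamini-Hochberg adjustment over all genes. A probe undetected on every array of a stage gave a bound ("at least"). No 2 arrays were identical, and the number of arrays limits the precision. The script was tested on simulated data.

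The genes and the related lists were chosen with earlier results of these data known. Named genes were the 7 genes, up to 3 passing genes of each related list in each direction, relatives of the 7 genes, the 3 nearest profiles and the neighbours in rank. Same-numbered arrays correlated in their deviations from the stage means at 0.318, 0.172 and 0.386 between late and early differentiation and at 0.239, 0.204 and 0.308 between early differentiation and proliferation, so the numbers were taken to pair the arrays there, from the data and not the labels. For late differentiation against proliferation the correlations were 0.0642, 0.0794 and 0.142, and not all passed the limit of 0.1. Differently numbered arrays were not compared, so these correlations do not establish a pairing. The main fit had no block, and the pairing entered only the replicate block. That block joined the same-numbered arrays of all 3 stages, late differentiation and proliferation included. Alternatives were another normalization (cyclic loess, none), an offset of 50, background subtraction with a 75th percentile scaling, the deposited value table, other filters, the mean of all kept probes, the replicate block, 1 BeadChip alone, and each array left out. An alternative without the third replicate of every stage was added after the data were seen.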

Additional observations from a re-analysis of the deposited data

Results flagged for a closer look

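Kndc1, Miat and Prkcb stood out because their level differed between the 2 differentiation stages by the test of that difference itself (limma, adjusted p = 0.0107, 0.0141 and 0.00718). Kndc1 was higher by 1.05 on the log2 scale in late than in early differentiation, on 3 of 3 late arrays. Miat differed by -1.26, with all 3 late arrays below all 3 early ones. Prkcb differed by -1.34, again on 3 of 3 late arrays, and each of its other 2 probes fell as well, both to a level close to the background. Stage and BeadChip cannot be told apart in these differences.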

How the results depend on the processing

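The genes passing in late over early differentiation numbered 432 as reported, 228 with an offset of 50 and 256 with the background subtracted and arrays scaled to the 75th percentile, and the cause was not tested. Of the 7 genes, 3 passed there as reported and 1 with the background subtracted, when Kndc1 (1.11, adjusted p = 0.0816) and Miat (-1.26, adjusted p = 0.0996) no longer passed. Likewise, 1 passed with the deposited values, when Miat (-1.32, adjusted p = 0.0596) and Prkcb (-1.60, adjusted p = 0.05004) did not. Without normalization between arrays Ucma passed (0.74, adjusted p = 0.0447) and Nrbp2 turned sign (0.0205), with neither of its values passing. Leaving out 1 array at a time gave 250 to 481 passing genes and 2 to 3 of the 7 genes, with Miat between -1.58 and -0.997; both the lowest count of genes (250) and the loss of Miat came without the second early array. Over all alternatives adjusted p ranged from 0.00187 to 0.0816 for Kndc1, from 0.00105 to 0.0996 for Miat and from 0.00153 to 0.05004 for Prkcb. The replicate block, a paired fit, gave 558 genes and changed no call of the 7 genes. Leaving out the third replicate of every stage gave 627. The differences of the 7 genes from proliferation kept their sign throughout. In 222 cases the value moved by less than the spread of the arrays and in 51 by more, for example Ucma in late over proliferation with an offset of 50 (3.75) or the background subtracted (8.87). The cause of these moves was not tested. Many of the 222 could not move, so their number is no measure of stability. Another filter, the replicate block or the loss of an array from the stage outside a comparison left these differences unchanged. Ucma and Psd2 were undetected on every proliferation array, and their differences from it have only a bound.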
